A study of Mus musculus and Homo sapiens with 10 samples.

Results

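The human collagen genes were followed in H1 embryonic stem cells after knockdown of the DNA methyltransferases. They were chosen by name alone, as every symbol of the human RNA table made of COL, a type number, A and a chain number, with no demand on level. The rule found 44 genes among 22060 symbols. Of these, 11 encode fibrillar collagens, 6 basement membrane collagens, 10 FACIT collagens (fibril-associated collagens with interrupted triple helices) and 17 collagens of other kinds. The ceramide transporter gene COL4A3BP, the pseudogene COL6A4P1 and the antisense gene COL18A1-AS1 share the first letters of the name but were not members.

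The series has 10 samples of mouse and human embryonic stem cells and asks how L1 retrotransposons are controlled. The results here use its 2 human RNA libraries, 1 per group. Both came from H1, an established human embryonic stem cell line, at passage 69. The control cells carried a lentiviral vector with an empty hairpin cassette (LV sh-empty), and the knockdown cells carried lentiviral hairpins against the DNMTs (LV sh-DNMTs). The labels name neither the hairpin sequences, nor the time after transduction, nor a selection step. Both libraries were made from polyadenylated cytoplasmic RNA.

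Levels are RPKM, read counts divided by the length of the annotated transcript and by the size of the library, so they can be compared between genes. The totals behind the values were worked out as 100921087 reads for the control library and 92478094 for the knockdown library. With 1 library per group there is no replicate check, no test and no p-value. Every difference therefore compares 2 libraries, and what part of it would recur in other cultures cannot be told. A 95% interval after a value is an exact binomial interval of the read counts, which covers counting error only. Read counts of single genes were worked out from the values as the smallest whole numbers that fit, so the true counts can be a multiple of those given and the intervals narrower. A gene is called past 2-fold where log2(RPKM + 0.5) differs by at least 1 between the libraries. That scale understates the difference of genes with low levels.

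The DNA methyltransferase genes DNMT1, DNMT3A and DNMT3B were lower in the knockdown library. DNMT1 stood at 28.4% of its control level (24.5 against 6.95 RPKM), DNMT3B at 41.9% and DNMT3A at 67.9%. The 10 pluripotent stem cell markers, which include DNMT3B, were all present in both libraries. They ranged from 17.3 (NANOG) to 921 RPKM (POU5F1) in the control and from 20.1 (LIN28B) to 893 (POU5F1) in the knockdown. Of the 10, 7 had a difference below 0, with a median of -0.22. TDGF1 (418 and 144 RPKM) and DNMT3B were past 2-fold lower and L1TD1 (80.3 and 223 RPKM) higher, while SOX2 stood at 61.9% and NANOG at 189% of control. Among 10 fibroblast markers, 8 had a difference above 0 and 2 below, with a median of 0.24. DCN and LUM, which define fibroblasts of connective tissue, were listed at 0 in the control and at 0.0201 and 0.00511 RPKM in the knockdown. S100A4 stood at 14.5 and 23.0 RPKM and PDGFRB at 2.35 and 1.39. PDGFRA, POSTN and TWIST1 were higher in the knockdown but under 0.5 RPKM in both libraries. The summed level of that list was 52.6 RPKM in control cells and 135 after knockdown, of which THY1, also found on embryonic stem cells, made up 35.2 and 109. Beside it, the 7 endoderm markers summed to 0.529 and 2.36 RPKM, the 7 mesoderm markers to 2.12 and 0.535, the 5 endothelial markers to 14.5 and 14.8, and the 6 neural markers to 121 and 192. Members of the last lists differed in both directions. Of the endothelial markers, KDR stood at 11.0 and 7.35 RPKM, TEK at 3.35 and 6.93, CDH5 at 0.0120 and 0.322, PECAM1 at 0.00580 and 0.135 and VWF at 0.0864 and 0.102. Of the neural markers, TUBB3 and NES stood at 198% and 151% of control and the other 4, OTX2, SOX1, DCX and PAX6, at 39.3 to 84.1%. All 7 endoderm markers had a difference above 0, with FOXA2 at 0.00816 and 1.24 RPKM and SOX17 at 0 and 0.00460. Of the mesoderm markers, 3 were below 0 and 3 above. TBX6, at 1.78 and 0.319 RPKM, made up most of the mesoderm sums. In bulk RNA, fewer cells of a kind and less RNA per cell cannot be told apart, and the part of cell mixture in the values below was not tested.

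Collagens are secreted proteins of 3 chains wound into a triple helix, which requires glycine at regular steps along the chain. Fibrillar collagens pack into the banded fibres of connective tissue. Type IV collagen forms the sheet of basement membranes, and FACIT collagens sit on the surface of fibres and link them to other matrix. Collagen VI makes beaded filaments around cells, and collagen XVIII is a basement membrane collagen with long sugar chains whose end fragment is endostatin. Chains are modified on proline and lysine in the endoplasmic reticulum before they wind, and are trimmed and crosslinked outside the cell. Human embryonic stem cells make basement membrane components themselves and are commonly grown on such proteins.

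Collagen mRNA was lower as a whole in the knockdown library. Summed over the 44 genes, the level was 290 RPKM in control cells and 136 after knockdown, or 46.7% of control, while the sum over all symbols was 100.2% of control. The sum rests on few genes, since 7 members held 54.8% of it in the control and 23.4% in the knockdown. Those were the 7 members past 2-fold lower, COL9A3, COL6A1, COL6A2, COL18A1, COL4A2, COL5A1 and COL4A1, and 0 members were past 2-fold higher. Over all symbols, 3.05% were past 2-fold lower and 2.78% higher. The other 37 members together stood at 79.1% of control, with a median log2 difference of -0.03. Of these, 17 had a mean RPKM of at least 1, with a median of -0.40, 13 differences below 0 and 4 above.

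Restricted to a mean RPKM of at least 1, 24 members were left, and 7 of them were past 2-fold lower, beside 4.84% of the 11763 symbols of that level lower and 4.04% higher. Of the 24, 20 had a difference below 0, while 48.4% of symbols of that level did. Their median log2 difference was -0.49, against 0.02 for those symbols. Among the 11 members with a mean RPKM from 5 to 20, 5 were past 2-fold lower, while 3.74% of the symbols in the same range were. From 1 to 5 RPKM it was 1 of 10 members, beside 6.96% of symbols, and from 20 RPKM upward 1 of 3, beside 2.90%. The filter and the ranges use both libraries, so a member that entered through its control level alone had to be lower. For the ranges this holds for all 7, each of which lay under the lower bound of its range in the knockdown. The ranges therefore describe the members and lend the 7 calls no support of their own. The 20 members with a mean RPKM under 1 had a median of -0.01, and none of them was past 2-fold.

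**Figure D1:**
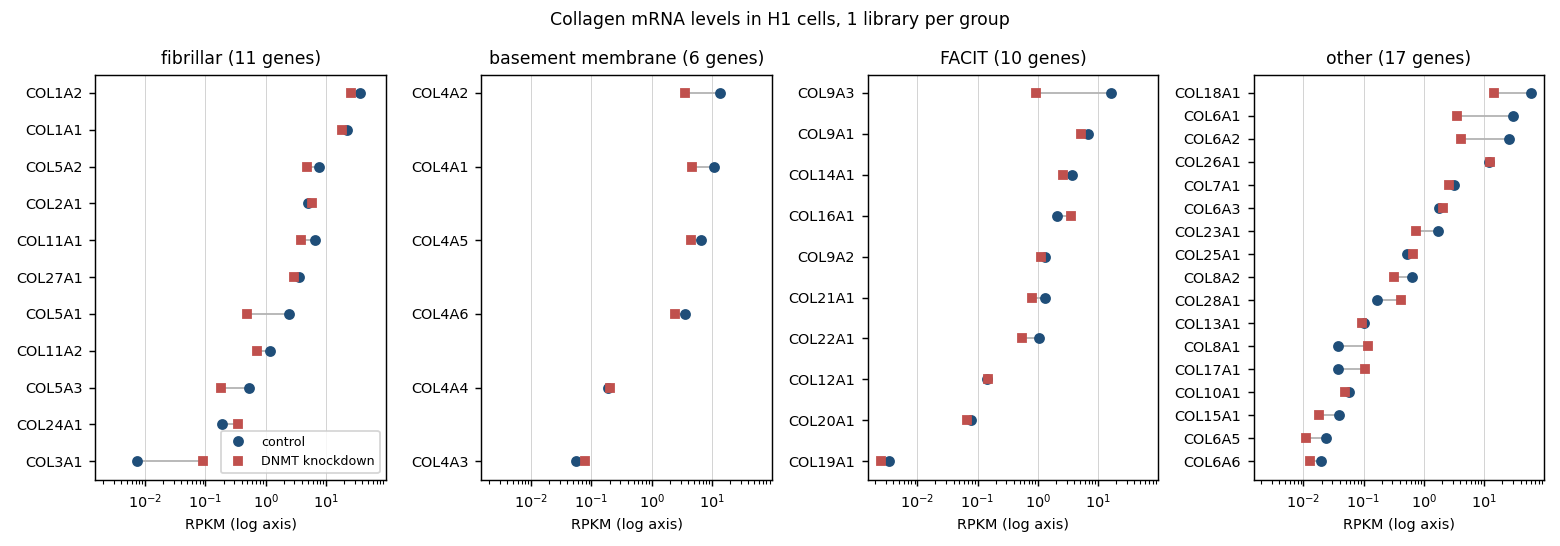
RPKM of each of the 44 collagen genes in the control library (circles) and the DNMT knockdown library (squares), on a log axis, in 4 panels by class and ordered by mean level. The long grey lines of COL9A3, COL6A1, COL6A2, COL18A1, COL4A2, COL4A1 and COL5A1 run to the left, while COL1A1 and COL1A2 stay close to their control level.

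The fibrillar class was the least reduced of the 4 in its summed level, which was 86.6 RPKM in control cells and 63.6 after knockdown (73.5% of control). COL1A2 and COL1A1 encode the chains of collagen I, the main collagen of bone, skin and tendon, and were the highest fibrillar genes in both libraries. COL1A2 stood at 36.7 and 26.1 RPKM, or 71.3% of control (interval 69.7 to 72.8%). COL1A1 stood at 22.8 and 18.2 RPKM, or 79.7% (77.7 to 81.8%). Neither was past 2-fold, and the chains kept a similar proportion, with 1.61 times as much COL1A2 as COL1A1 in the control and 1.44 times in the knockdown. COL3A1, which encodes the collagen that accompanies collagen I in soft tissue, was nearly absent, at 0.00722 RPKM from 4 reads in the control and 0.0926 from 47 in the knockdown. That is 12.8 times the control level, with a wide interval of 4.69 to 49.0, and lies far below the level of collagen I in either library.

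Collagen V regulates the diameter of collagen I fibres, and its 3 chains did not differ alike. COL5A1 was the 1 fibrillar gene of 11 past 2-fold. It stood at 2.48 RPKM in control cells and 0.483 after knockdown, 5.14-fold lower (interval 4.61 to 5.75), from 2115 and 377 reads. COL5A2, its usual partner, stood at 7.55 and 4.85 RPKM, 1.56-fold lower (1.49 to 1.63). COL5A3, a chain of some tissue forms, stood at 0.522 and 0.183 RPKM, 2.85-fold lower (2.28 to 3.58), and its low level kept it short of the 2-fold call. The partner COL5A2 was thus present at 3.04 times the level of COL5A1 in the control and at 10.0 times in the knockdown.

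The cartilage chains were split. COL2A1, the main collagen of cartilage, was slightly higher in the knockdown, at 5.06 and 5.86 RPKM or 116% of control (110 to 122%). COL11A1 and COL11A2, whose products form the core of cartilage fibres with a COL2A1 chain, were lower, at 6.66 and 3.92 RPKM (58.8%, 56.1 to 61.7%) and at 1.16 and 0.730 RPKM (62.8%, 48.8 to 80.5%). COL11A1 was therefore 1.32 times COL2A1 in the control and 0.668 times in the knockdown. COL27A1, a fibrillar collagen of developing cartilage, stood at 3.53 and 2.90 RPKM (82.2%, 76.8 to 87.9%), and COL24A1 at 0.191 and 0.349 from 25 and 42 reads. Over the 11 fibrillar genes, 8 differences were below 0 and the median was -0.43.

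In the basement membrane class, 2 of 6 genes were past 2-fold lower, and the summed level was 34.7 RPKM in control cells and 15.5 after knockdown (44.6%). The 6 genes lie in the genome as 3 head-to-head pairs that share a promoter region. COL4A1 and COL4A2 encode the chains of the most widespread form of collagen IV. COL4A1 stood at 10.9 and 4.72 RPKM, 2.32-fold lower (2.22 to 2.42), and COL4A2 at 13.3 and 3.52 RPKM, 3.78-fold lower (3.60 to 3.97). COL4A1 was at 0.820 times the level of COL4A2 in the control and at 1.34 times in the knockdown, so the order of the partners was reversed.

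COL4A5 and COL4A6, the pair on the X chromosome, were lower by a smaller and nearly equal amount. COL4A5 stood at 6.64 and 4.55 RPKM (68.6%, 65.3 to 72.0%) and COL4A6 at 3.61 and 2.42 RPKM (67.2%, 63.0 to 71.7%). Their ratio was 1.84 in the control and 1.88 in the knockdown. COL4A3 and COL4A4, best known from the filter of the kidney, were low in both libraries, at 0.0562 and 0.0773 RPKM and at 0.189 and 0.202 RPKM, and both intervals include no difference (76.9 to 249% and 87.2 to 131% of control). In the control library COL4A2 and COL4A1 were the highest of the class, while in the knockdown COL4A1 (4.72 RPKM) and COL4A5 (4.55 RPKM) were.

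In the FACIT class the summed level was 32.7 RPKM in control cells and 14.9 after knockdown (45.5%), and most of that difference lay in 1 gene. COL9A3, a chain of collagen IX on the surface of cartilage fibres, stood at 16.2 RPKM in control cells and 0.936 after knockdown. It was 17.3-fold lower (interval 15.1 to 19.9) from 4057 and 215 reads, the largest difference of all 44 members. The other chains of the same molecule differed less. COL9A1 stood at 6.88 and 5.10 RPKM (74.2%, 69.4 to 79.3%) and COL9A2 at 1.31 and 1.13 RPKM (85.8%, 73.5 to 100.3%). COL9A3 was thus 2.35 times as high as COL9A1 in the control and 0.183 times in the knockdown.

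COL16A1, a FACIT collagen of many tissues, had the largest upward difference of the members on the log2 scale. It stood at 2.08 and 3.54 RPKM, or 170% of control (158 to 183%), a log2 difference of 0.65 that was not past 2-fold. COL14A1 stood at 3.64 and 2.58 RPKM (71.0%), COL21A1 at 1.32 and 0.815 (61.7%), and COL22A1 at 1.04 and 0.554 (53.1%). COL12A1 was low and similar in both libraries, at 0.142 and 0.151 RPKM. COL20A1 and COL19A1 were lower still, with 33 and 26 reads for COL20A1 and with 3 and 2 for COL19A1, the lowest member in both libraries. Of the 10 FACIT genes, 8 were below 0, with a median of -0.28.

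The other 17 genes held the 3 members of highest control level outside collagen I, and all 3 were past 2-fold lower. COL18A1 was the highest collagen gene of the control library, at 60.1 RPKM, and stood at 14.5 in the knockdown, 4.15-fold lower (4.05 to 4.26). It held 20.7% of the summed collagen level in the control and 10.7% in the knockdown, where it came after COL1A2 and COL1A1. The related COL15A1 was at 0.0395 and 0.0185 RPKM from 21 and 9 reads. How strand was treated in the counting is unknown here. The antisense gene COL18A1-AS1 was listed at 0.0174 and 0.00947 RPKM, far below COL18A1.

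Collagen VI is built from 1 chain each of COL6A1, COL6A2 and a longer chain, usually COL6A3. COL6A1 stood at 30.4 RPKM in control cells and 3.51 after knockdown, 8.67-fold lower (8.20 to 9.17). COL6A2, its neighbour in the genome, stood at 25.5 and 4.11 RPKM, 6.22-fold lower (5.87 to 6.59). COL6A3, on another chromosome, did not share this. It stood at 1.75 and 2.08 RPKM, or 119% of control (108 to 131%). In the control library COL6A1 was 17.4 times as high as COL6A3, while in the knockdown it was 1.69 times as high. The alternatives to COL6A3 were barely present, COL6A5 with 21 and 9 reads and COL6A6 with 17 and 10.

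The remaining members of this group differed less. COL26A1, an unclassed collagen-like protein, was the fourth highest collagen gene of the knockdown library, at 11.9 and 12.3 RPKM, and its interval of 96.8 to 111% of control includes no difference. COL7A1, which forms the fibrils that anchor epithelia, stood at 3.15 and 2.60 RPKM (82.6%, 78.1 to 87.3%). COL23A1, a collagen that spans the cell membrane, stood at 1.69 and 0.744 RPKM (44.2%, 31.5 to 61.2%). The other membrane collagens were lower in level, with COL25A1 at 0.517 and 0.647 RPKM, COL13A1 at 0.103 and 0.0940, and COL17A1 at 0.0371 and 0.104 from 7 and 18 reads. COL8A2, a short-chain collagen of the cornea, stood at 0.637 and 0.316 RPKM (49.6%), while its partner COL8A1 was at 0.0379 and 0.116, and COL10A1, of growing cartilage, at 0.0569 and 0.0490. COL28A1 was at 0.166 and 0.412 RPKM, or 248% of control (181 to 343%), too low to be past 2-fold on the scale used.

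**Figure D2:**
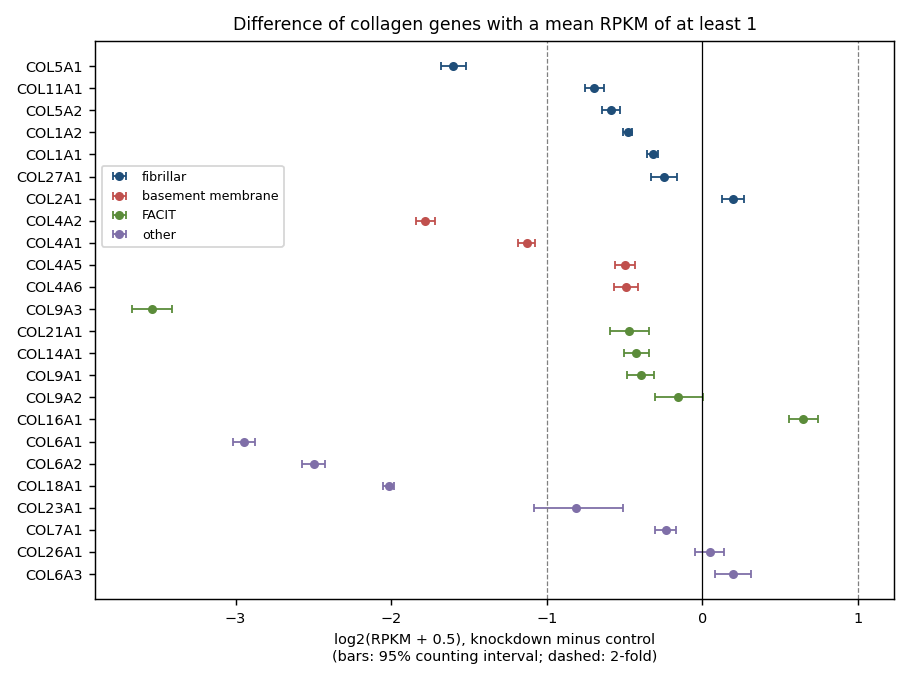
Difference in log2(RPKM + 0.5), knockdown minus control, for the 24 collagen genes of mean RPKM 1 or more, coloured by class, with 95% counting intervals and dashed lines at 2-fold. COL9A3 (-3.54), COL6A1 (-2.95), COL6A2 (-2.50), COL18A1 (-2.02), COL4A2 (-1.78), COL5A1 (-1.60) and COL4A1 (-1.13) lie left of the dashed line, and COL16A1 (0.65) is farthest to the right.

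By class, the medians were -0.43 for fibrillar, -0.49 for basement membrane, -0.28 for FACIT and -0.02 for the other genes, against 0.00 over all symbols. Each of the 4 classes held at least 1 of the 7 members past 2-fold. The other class had the lowest sum in the knockdown relative to control (30.5%) and also, without a filter on level, the median nearest 0. Of its 17 genes, 10 had a mean RPKM under 1 and 6 had a difference above 0. At a mean RPKM of at least 1, the median was -0.48 for 7 fibrillar and -0.81 for 4 basement membrane genes. It was -0.41 for 6 FACIT and -0.81 for 7 other genes, against 0.02 for all symbols of that level. Counting error was small beside the differences of the 7 members past 2-fold. The interval excluded no difference for 23 members on the lower side and 8 on the higher side and included it for 13. That count was not made over all symbols, so whether it is particular to collagen genes cannot be told.

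Of several transcript entries of a gene, the one with the highest mean was used, and the others had the same direction except in COL13A1. The member genes had 69 entries in all, and 13 genes had more than 1. The 2 entries of COL18A1 stood at 24.1% of control each, and the 3 of COL6A2 at 16.1 to 17.3%. The 5 entries of COL6A3 stood at 119 to 126%, and the 4 of COL11A1 at 57.9 to 58.8%. The 4 entries of COL11A2 stood at 51.9 to 63.2%. The 6 entries of COL13A1, all at low levels, ranged from 80.0 to 182%. Entries of a gene share most of their exons and reads, so they are no replicates of each other.

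Some members past 2-fold sit together in the genome, so genes of the same chromosome ends were set beside them. COL6A1, COL6A2 and COL18A1 lie near the end of the long arm of chromosome 21, COL9A3 near that of chromosome 20, and COL4A1 with COL4A2 near that of chromosome 13. The neighbours were listed from general knowledge of the human map after the collagen values had been seen, and no coordinates were used. On chromosome 21, 29 neighbours had a mean RPKM of at least 1, with a median log2 difference of 0.09, 3 past 2-fold lower and 2 higher. Over all symbols of that level the shares were 4.84% lower and 4.04% higher. SLC19A1 and PCBP3, which lie between COL18A1 and COL6A1, stood at 3.35 and 3.61 RPKM and at 2.14 and 0.341. On the far side of COL6A2, SPATC1L stood at 10.2 and 20.9 RPKM and LSS at 24.6 and 33.5. On the log2 scale with 0.5 added, the differences of the 3 collagen genes were below those of all 29 neighbours, of which PCBP3 had the lowest (-1.65). Relative to control that order did not hold, since PCBP3 stood at 15.9%, below COL6A2 (16.1%) and COL18A1 (24.1%). AGPAT3, left out by the level filter, stood at 0.999 and 0.0269 RPKM (2.69% of control), lower relative to control than all 3 collagen genes.

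On chromosome 20, 35 neighbours had a median of -0.03, with 8 past 2-fold lower and 1 higher, so that the share on the lower side was above the 4.84% of all symbols despite the median near 0. The genes on either side of COL9A3 were among the 8, OGFR at 6.08 and 1.96 RPKM and TCFL5 at 5.56 and 0.975. EEF1A2, farther along, stood at 7.93 and 0.493 RPKM. On chromosome 13, 22 neighbours had a median of -0.27, with 5 past 2-fold lower and 0 higher, again a larger share on the lower side than 4.84%. RAB20, CARKD and CARS2, on the COL4A2 side, stood at 82.9%, 105% and 79.8% of control. IRS2, also among the 22, stood at 3.31 and 1.69 RPKM (51.0%). Of the 22 differences, 17 were below 0 and 5 above. GAS6 and ATP11A stood at 17.6 and 1.18 RPKM and at 17.8 and 1.87, lower relative to control than either collagen gene. The part of chromosome position in the collagen values was not tested.

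**Figure D3:**
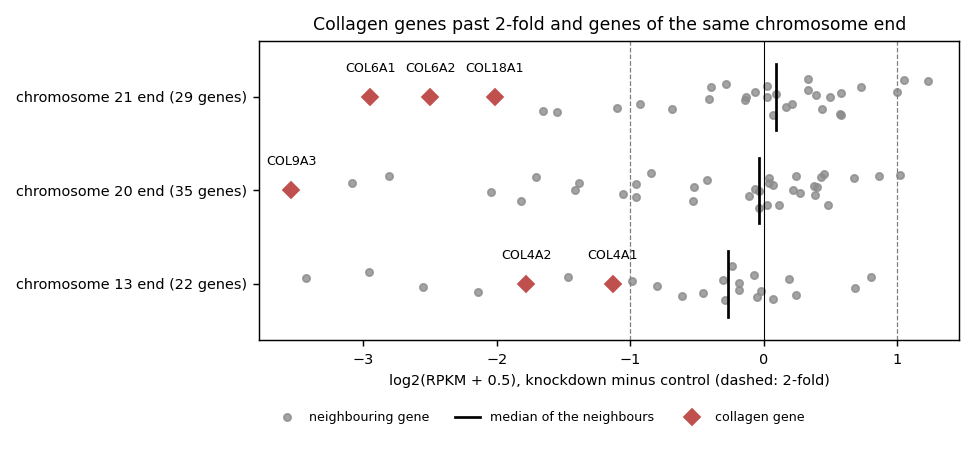
Difference in log2(RPKM + 0.5), knockdown minus control, of 6 collagen genes past 2-fold (diamonds) and of genes of mean RPKM 1 or more at the same chromosome end (circles), with the median of the neighbours as a bar. The medians lie at 0.09, -0.03 and -0.27 for chromosomes 21, 20 and 13, to the right of all 6 collagen genes. Only collagen genes past 2-fold lower are drawn, so any median short of that limit had to lie to their right.

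The machinery that makes and handles collagen was read from 8 lists, which held 81 genes in the table. Of these, 6 were past 2-fold lower and 4 higher, beside 3.05% and 2.78% of all symbols, and the median was 0.01. The same shares stand beside the counts of each list below. Among 14 genes for the modification of proline and lysine, 3 were past 2-fold lower, 0 higher, and the median was -0.41. P4HA1 and P4HA2 encode the catalytic chains of prolyl 4-hydroxylase, which stabilises the triple helix. P4HA1 stood at 44.5 and 10.9 RPKM (24.6% of control, 23.6 to 25.6%) and P4HA2 at 8.74 and 0.989 (11.3%, 9.71 to 13.1%). LEPREL1, a prolyl 3-hydroxylase that acts on collagen IV, stood at 33.4 and 5.72 RPKM (17.1%, 15.9 to 18.5%). The other chain of the 4-hydroxylase, P4HB, which also serves as a general folding enzyme, was at 100.2 and 104 RPKM, and the folding enzyme PPIB, the highest of the list, at 160.5 and 170. The lysyl hydroxylases PLOD1, PLOD2 and PLOD3 stood at 73.5%, 74.9% and 131% of control.

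Of the 8 chaperone and export genes 0 were past 2-fold, and their median was 0.03. SERPINH1, the chaperone specific to collagen, was the highest at 105 and 158 RPKM (151%, 148 to 153%), and SPARC, a collagen-binding matrix protein, was at 54.0 and 54.5. In the list for removal of the end peptides, 1 of 8 was past 2-fold lower, ADAMTS2, which cuts the amino end of fibrillar procollagen, at 0.850 and 0.115 RPKM. BMP1, which cuts the other end, was just short of the limit at 1.94 and 0.719 RPKM, and the highest, its enhancer PCOLCE, was at 14.7 and 13.1. Of the 7 crosslinking genes 0 were past 2-fold (median -0.06). PXDN, which crosslinks collagen IV, was the highest at 27.2 and 25.7 RPKM, and LOXL2 stood at 14.7 and 11.7.

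Among 10 collagen receptors, 1 was past 2-fold and it was higher. DDR2, a receptor kinase for fibrillar collagen, stood at 0.300 and 2.75 RPKM, 9.17 times the control level (7.42 to 11.5), while its relative DDR1 stood at 7.23 and 4.41. ITGB1, the beta chain of all collagen integrins, was the highest at 93.4 and 92.0 RPKM, and the median of the list was -0.02. Of 9 collagen-cutting proteases and their inhibitors, 2 were past 2-fold higher and 0 lower, with a median of 0.09. They were MMP9, a gelatinase, at 1.19 and 3.23 RPKM and TIMP3, an inhibitor, at 0.391 and 1.33, and the highest of the list was the inhibitor TIMP1 at 21.5 and 23.7. The collagenases MMP1, MMP8 and MMP13 were listed at 0 in the control and at 0 to 0.0316 RPKM in the knockdown.

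The partners of collagen IV in the basement membrane had a median of -0.48 over 15 genes, with 1 past 2-fold lower and 1 higher. NID1, which bridges laminin and collagen IV, stood at 12.3 and 4.66 RPKM (37.8%, 36.1 to 39.6%), and LAMC3, a laminin gamma chain, at 2.53 and 5.63 (222%, 209 to 236%). LAMC1, the highest of the list, was near its control level at 29.4 and 27.6 RPKM, and LAMA5 stood at 29.2 and 14.8 (50.5%), just short of the limit. The proteoglycan genes HSPG2 and AGRN stood at 62.1% and 66.2% of control. Of the 15, 9 had a difference below 0 and 6 above. Among the 6 were LAMA4 at 0.0791 and 0.397 RPKM and LAMB3 at 0.119 and 0.500. Among 10 fibril-associated proteins, 1 was past 2-fold lower and the median was 0.07. It was FN1, encoding fibronectin and the highest of the list in the control, at 12.3 and 4.89 RPKM (39.8%, 38.4 to 41.3%). Of the 10, 8 had a difference above 0. THBS1 was just short of the limit on the higher side, at 2.40 and 5.12 RPKM (213%).

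**Figure D4:**
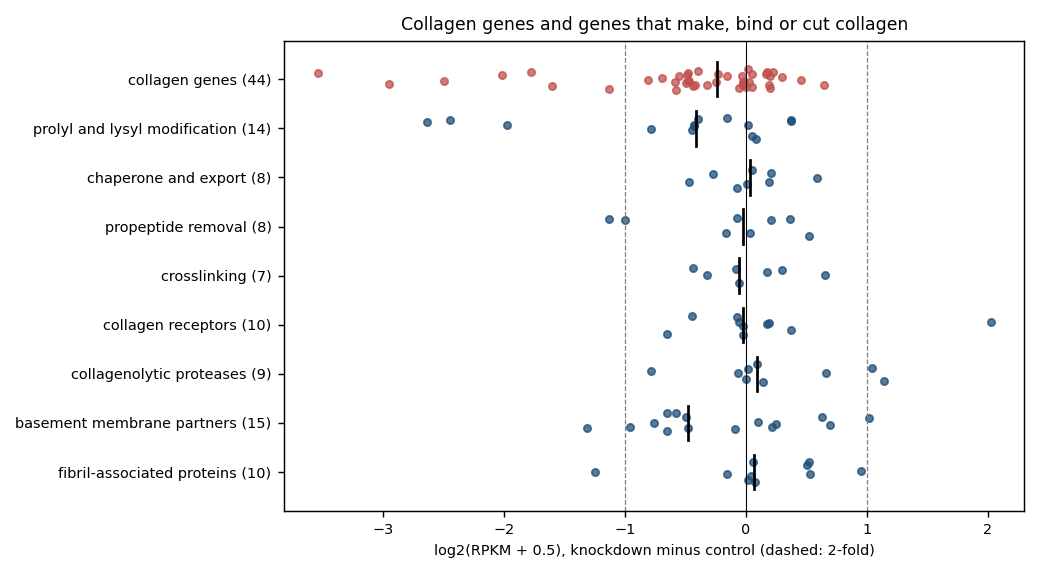
Difference in log2(RPKM + 0.5), knockdown minus control, of the 44 collagen genes and of the genes in 8 lists of collagen handling and matrix partners, 1 point per gene, with the median as a bar and dashed lines at 2-fold. The points left of the lower dashed line are mostly collagen genes (7) and modification genes (3), and DDR2 lies far to the right at 2.02.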

How the data were processed

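The authors deposited RPKM values of every RefSeq entry for a control and a DNMT knockdown library of H1 cells. Bowtie 0.12.5 and the build hg19 are named in the submitters' processing notes. Not given in the sources used here: counter, annotation release, and handling of strand and of reads with several positions. Symbols were those of the deposited table, with COLGALT1 and COLGALT2 read for the older names in the list. Each of the 22060 symbols was given the entry with the highest mean of both libraries. Differences are log2(RPKM + 0.5), knockdown minus control. No model was fitted, since each group has 1 library.

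Whole reads were worked out. With locus lengths, 1 total per library turned 100% of the deposited L1 values into whole reads within 0.01. The smallest length up to 120000 bp that gave whole reads within 0.0005 in both libraries was then found for all 44 members. It can be a fraction of the true length, and the interval is then too wide. Intervals are exact binomial at 95% (Python 3.11.15, scipy 1.17.1). Scripts were tested on simulated data.

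Named were members with a mean RPKM of at least 1 or past 2-fold and their partner chains, and list genes past 2-fold with the highest of each list. Other members and list genes were added after their values were seen. The members and lists were chosen with earlier results of these data known. Mouse files were not used here. The planned description of protein and promoter sequences was not made.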

Additional observations from a re-analysis of the deposited data

How the results depend on the processing

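The count of 7 members past 2-fold lower held with a pseudocount of 1 (1.99% of all symbols lower). It held with a mean RPKM of at least 0.5 or 1 (4.97% and 4.84% of the symbols of that level). It also held after median centring (3.17%), with summed entries (3.47%) and with the lowest entry of each gene (2.92%). The same 7 genes were called each time. A pseudocount of 0.1 gave 9, adding COL5A3 and COL23A1 (5.49% of all symbols lower), and a fold of 1.5 gave 10, adding COL5A2, COL11A1 and COL23A1 (8.51% of all symbols lower and 8.70% higher). The count past the limit on the higher side was 0 in each of these except at a fold of 1.5, where it was 1, COL16A1. Scaling outside the 20 highest symbols, chosen after seeing the data, gave the same 7 genes (3.20% of all symbols lower). The median of the other class moved from -0.02 to -0.088 with a pseudocount of 0.1. The medians of the 4 classes and of the 8 lists kept their sign under both pseudocounts and centring. All 144 recomputed differences of the 24 named members kept their sign, but most of this was fixed in advance. A changed pseudocount cannot reverse the sign of a single difference, and it leaves little room for a median to change sign. Genes with 1 entry do not depend on the entry chosen. Centring shifts all genes by 0.02 and the added scaling by about -0.03. Both are smaller in size than the smallest difference of the 24, 0.05 for COL26A1. Depth limits the members under about 0.1 RPKM, such as COL19A1 with 3 and 2 reads. No library could be left out, and no paired analysis was possible because each group has 1 library.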
